A study of Mus musculus with 9 samples.

Results

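Gene expression in the lower and the upper part of the mouse colon crypt was compared through the surface antigen Cd44, the hyaluronan receptor carried by cells of the crypt base. The Cd44-positive side held 6 libraries from 2 populations that were given equal weight, 3 Lgr5-enriched (Epcam+, Cd44+, Kit-neg) and 3 goblet-enriched (Epcam+, Cd44+, Kit+). The Cd44-negative side held the 3 enterocyte-enriched libraries (Epcam+, Cd44-neg, Cd66a-high), where Cd66a is the protein made from Ceacam1. These are all 9 libraries of the study. Position in the crypt was not measured, and the Cd44-negative side is a single gate of enterocyte-enriched cells. Height in the crypt, the Cd66a selection and the enterocyte lineage therefore cannot be told apart. A gene is called shared below when limma called it between the sides (Benjamini-Hochberg adjusted p below 0.05 over all tested genes) and all 3 libraries of each Cd44-positive population lay above, or all lay below, all 3 Cd44-negative libraries. By this rule 4633 of 12888 tested genes (35.9%) were shared, 3301 of them higher (25.6%) and 1332 lower (10.3%) in the Cd44-positive populations. A gene that separates goblet cells from stem cells but does not set both apart from the Cd44-negative cells does not meet it. The rule uses the same contrast as these counts, which are therefore a description.

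All animals were adult female C57BL/6J mice per the labels, which name no transgene or treatment, and each of the 3 replicates of a population came from a separate mouse. Crypts were detached with EDTA, dissociated with DNase and collagenase and sorted by flow cytometry. Dead cells, doublets and cells with the antigens Cd3, Cd16/Cd32, Cd31 or Cd45 of leukocytes and endothelium had been gated out of all 3 populations. The populations are enrichments by 2 or 3 antigens and not pure cell types, and each p-value reflects how far libraries of 3 mice differed.

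In the colon crypt, stem cells at the base are held in the stem cell state by Wnt signals, their daughters divide in the lower crypt, and cells leave the cycle and mature as they move toward the lumen, where BMP signals are stronger. Mature colonocytes absorb salt and water, burn butyrate in their mitochondria and carry a brush border, and they are shed from the surface within days of their birth. Goblet cells, which secrete the mucus, occur at all heights of the crypt.

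Depth, recovered from the deposited values, was 11.2 to 26.8 M gene reads per library (M, times 1000000), so that a single read of a transcript of 1 kb gave 0.0958 to 0.208 TPM (transcripts per 1000000). Libraries were sequenced on a HiSeq or a NovaSeq instrument, and which library was run on which is not given in the sources used here, so a difference between instruments cannot be told apart from the rest. The library labelled enterocyte-enriched replicate 1 stood apart, with Xist at 0.128 TPM and Y-linked transcripts summing to 138.6 TPM, against at least 110.3 and at most 0.325 TPM in the other 8 libraries, so its sex-linked transcripts go against its label. Values without it are given below where they change a call or move a value by over 1.5 times. Without it 2953 of the 3301 and 1101 of the 1332 shared genes still met the rule. Goblet-enriched replicate 3 carried more transcripts of mature colonocytes than the other 2 goblet-enriched libraries, as given below.

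The antigens of the gates were read first. Cd44 (chr2:102811141-102901665; gene coordinates are those of the GENCODE M21 annotation of GRCm38) stood at 89.3, 49.6 and 87.8 TPM in Lgr5-enriched, 31.9, 20.7 and 25.4 in goblet-enriched and 2.76, 1.28 and 2.5 in enterocyte-enriched replicates 1 to 3. Both Cd44-positive populations lay above the Cd44-negative libraries without overlap, and the Lgr5-enriched level was above the goblet-enriched one (goblet minus Lgr5 log2 difference -1.47, SE 0.29, limma adjusted p = 0.00478). Ceacam1 (chr7:25461707-25477603) stood at 1265, 1304 and 1418 TPM in the Lgr5-enriched, 2281, 1380.4 and 1639 in the goblet-enriched and 3287, 2466 and 2390.4 in the enterocyte-enriched libraries, so all 3 Cd44-negative libraries lay above the other 6. Ceacam1 differed by -0.83 (SE 0.18, limma adjusted p = 0.00506). It no longer met the rule under quantile normalization. Kit, which split the Cd44-positive cells, stood at 4.05, 11 and 11.6 TPM in the Lgr5-enriched, 168, 249 and 188 in the goblet-enriched and 18.1, 22.5 and 29.1 in the enterocyte-enriched libraries, above the Cd44-negative libraries in goblet-enriched and below them in Lgr5-enriched cells. It was called higher without being shared (log2 difference 0.84, SE 0.30, limma adjusted p = 0.0386), and not under median-of-ratios scaling (0.56, limma adjusted p = 0.11) or quantile normalization (0.56, limma adjusted p = 0.0974). The call also ended without replicate 2 or 3 of either Cd44-positive population and without enterocyte-enriched replicate 1 or 2, when the difference was 0.69 to 0.86. Epcam, the antigen of all gates, stood at 1526 to 2064 TPM over the 9 libraries and was not called (log2 difference -0.15, SE 0.13, limma adjusted p = 0.34), although it was called lower under median-of-ratios scaling (-0.46, limma adjusted p = 0.0196). Since the gates selected on these antigens, their transcripts are a check of the labels and not a finding.

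Between the sides, limma called 6750 of 12888 genes (52.4%), 4863 higher (37.7%) and 1887 lower (14.6%) in the Cd44-positive populations. Differences here and below are Cd44-positive minus Cd44-negative on the log2(TPM + 1) scale, where changes of genes at a few TPM come out too small. The split depended on the scaling between libraries. TPM as deposited made 72.0% of the called genes higher, and median-of-ratios scaling made 48.5% higher, with 2828 genes higher (21.9%) and 3004 lower (23.3%). Quantile normalization called 45.1% of the genes, with 2166 shared higher (16.8%) and 1878 shared lower (14.6%). The median difference of all tested genes was 0.29 in TPM, 0.08 after quantile normalization and 0.02 under median-of-ratios scaling, so small positive differences are near the middle of all genes. Under median-of-ratios scaling 1801 genes were shared higher (14%) and 2357 lower (18.3%). All 1801 were among the 3301, and all 1332 shared lower genes were among the 2357. Against the same enterocyte-enriched libraries, the Lgr5-enriched population had 4847 genes called higher (37.6%) and 1549 lower (12%), and the goblet-enriched population 3633 (28.2%) and 2054 (15.9%). Median-of-ratios scaling turned the balance in both, to 2534 higher (19.7%) and 3033 lower (23.5%) for the Lgr5-enriched and 2553 (19.8%) and 2751 (21.3%) for the goblet-enriched population.

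The shared lower genes reached further than the shared higher genes. The smaller of a gene's 2 differences, Lgr5-enriched and goblet-enriched each against enterocyte-enriched, was at least 1 in size for 703 shared higher and 514 shared lower genes, at least 2 for 38 and 185, and at least 3 for 7 and 79. Of those with a size of at least 1, 665 of 703 and 514 of 514 were also shared under median-of-ratios scaling. The shared lower genes held 29.3% to 38.6% of all TPM in the Cd44-negative libraries and 11.8% to 15.6% in the Cd44-positive ones. The shared higher genes held 10.7% to 13.7% and 20.5% to 26.5%. In bulk samples, fewer cells of a type and less RNA per cell cannot be told apart.

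The 2 Cd44-positive populations were not alike within the shared genes. The goblet-enriched minus Lgr5-enriched contrast, whose difference does not use the Cd44-negative libraries although its pooled spread does, called 34.3% of all tested genes, 1384 higher (10.7%) and 3039 lower (23.6%) in goblet-enriched cells. The balance turned under median-of-ratios scaling, with 1839 higher (14.3%) and 1549 lower (12%), and the median of this difference over all tested genes was -0.26 in TPM and -0.05 under that scaling. The lower count was 4563 with replicate number as a block and 1557 without Lgr5-enriched replicate 3. Among the shared higher genes it called 33.9%, 272 higher and 846 lower in goblet-enriched cells, and among the shared lower genes 29.3%, 53 higher and 337 lower. These shares lie near that of all genes. Their counts, 1118 and 390 in all, were 565 and 245 without Lgr5-enriched replicate 3, and 672 for the higher genes without goblet-enriched replicate 2. Of the shared higher genes 2376 were further from the Cd44-negative mean in the Lgr5-enriched population and 925 in the goblet-enriched one. Of the shared lower genes 975 were further away in the goblet-enriched population and 355 in the Lgr5-enriched one. These tallies move with the offset of all genes: for the same genes under median-of-ratios scaling they were 1826 and 1475 for the higher genes, and 765 and 565 for the lower genes. The calls among the higher genes also turned, to 398 higher and 322 lower in goblet-enriched cells. Outside the rule, 234 genes had all Lgr5-enriched libraries above and all goblet-enriched libraries below the Cd44-negative ones, and 277 genes the reverse. The genes closest to the edge of the rule were Thoc3 and Sec62 on the inside, with the lowest Cd44-positive library at 23.4445 TPM and 53.6919 TPM against the highest Cd44-negative library at 23.4439 TPM and 53.6806 TPM. Mir7663 and Snord1c were just outside, since the lowest Cd44-positive library and all Cd44-negative libraries were listed at 0 TPM.

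**Figure D1:**
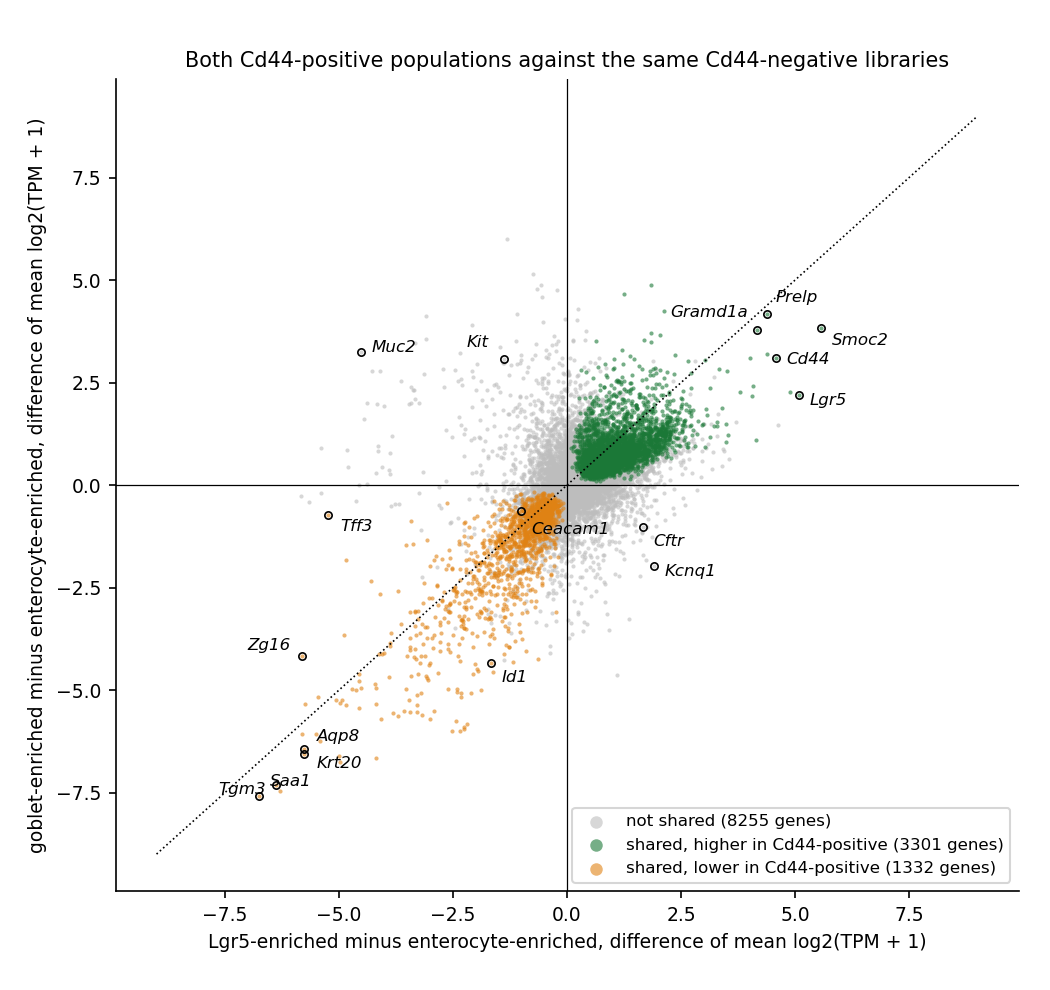
Each point is 1 of the 12888 tested genes, placed by the difference of mean log2(TPM + 1) between Lgr5-enriched and enterocyte-enriched libraries (horizontal) and between goblet-enriched and enterocyte-enriched libraries (vertical), and both axes use the same enterocyte-enriched libraries. The 3301 shared higher genes (green) fill the upper right, the 1332 shared lower genes (orange) reach further from the centre in the lower left, and Muc2, Kit, Cftr and Kcnq1 lie in the other 2 quadrants.

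The 12 shared higher genes with the largest smaller-of-2 difference include Cd44 itself, given above. Prelp, a leucine-rich proteoglycan of the extracellular matrix (chr1:133910304-133921414), stood at 71.6, 80.9 and 103 TPM in Lgr5-enriched, 74.3, 66.2 and 77 in goblet-enriched and 1.62, 2.49 and 6.43 in enterocyte-enriched replicates 1 to 3. All 6 Cd44-positive libraries lay far above the Cd44-negative ones, and the Lgr5-enriched and goblet-enriched ranges overlapped (log2 difference 4.27, SE 0.29, limma adjusted p = 7.35e-05). Smoc2, a matricellular protein and stem cell marker (chr17:14279506-14404790), stood at 199.9, 150.4 and 202 TPM in the Lgr5-enriched, 44.6, 54.7 and 62.9 in the goblet-enriched and 1.62, 2.2 and 5.84 in the enterocyte-enriched libraries. Its levels fell into 3 separate steps, with the goblet-enriched libraries between the others (log2 difference 4.70, SE 0.28, limma adjusted p = 6.49e-05, and goblet minus Lgr5 -1.75, SE 0.32, limma adjusted p = 0.00386). Gramd1a, a carrier of cholesterol at membrane contacts (chr7:31130127-31155896), stood at 45.6, 36.6 and 33.2 TPM in the Lgr5-enriched, 32.1, 30.6 and 25.1 in the goblet-enriched and 0.543, 1.41 and 1.75 in the enterocyte-enriched libraries, and Rgcc, a regulator of the cell cycle (chr14:79288756-79301645), at 133, 102 and 113 TPM in Lgr5-enriched, 37.6, 54.3 and 62.5 in goblet-enriched and 1.59, 6.5 and 8.01 in enterocyte-enriched replicates 1 to 3. Neither had a Cd44-negative library near the Cd44-positive range (log2 difference 3.98, SE 0.20, limma adjusted p = 6.49e-05, and log2 difference 3.79, SE 0.36, limma adjusted p = 0.000139).

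Aqp1, a water channel (chr6:55336432-55348555), stood at 99, 215 and 207 TPM in the Lgr5-enriched, 50.9, 118 and 111 in the goblet-enriched and 3.77, 10.4 and 19 in the enterocyte-enriched libraries, higher in all 6 Cd44-positive libraries. Aqp1 differed by 3.55 (SE 0.46, limma adjusted p = 0.000425). The transcription factors Tead2, the DNA-binding partner of the Yap coactivator, and Etv4, an Ets factor downstream of receptor tyrosine kinases, were also among the first 12. Tead2 (chr7:45215753-45233644) stood at 22.6, 17.4 and 20.4 TPM in the Lgr5-enriched, 15.8, 19.9 and 26.7 in the goblet-enriched and 1.06, 1.01 and 3.15 in the enterocyte-enriched libraries. Etv4 (chr11:101769742-101785371) stood at 71.8, 67.4 and 101 TPM in Lgr5-enriched, 48, 38 and 56.9 in goblet-enriched and 1.69, 7.44 and 14 in enterocyte-enriched replicates 1 to 3, with the lowest value in enterocyte-enriched replicate 1. Without that library its difference was 2.46 in place of 3.15. Rassf4, a Ras association domain protein, 4933406C10Rik, a long non-coding RNA (chr12:32919384-32953789), Phgdh, the first enzyme of serine synthesis, and the ephrin receptor Ephb3 complete the 12 with Cd44. The non-coding RNA stood at 5.69, 8.34 and 12.1 TPM in the Lgr5-enriched, 9.77, 9.4 and 15.2 in the goblet-enriched and 0.51, 0.444 and 0.533 in the enterocyte-enriched libraries (log2 difference 2.84, SE 0.24), and its libraries formed 2 groups, with the goblet-enriched and Lgr5-enriched values overlapping. It reached 1 TPM only in the Cd44-positive libraries and entered the test through them, so its call is no support.

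The 12 shared lower genes were chosen in the same way. Saa1, a serum amyloid A protein (chr7:46740497-46742980), stood at 15, 4.42 and 15.5 TPM in the Lgr5-enriched, 1.44, 1.25 and 44.3 in the goblet-enriched and 4378, 518 and 789 in the enterocyte-enriched libraries, and reads may be split with other members of its family. Within the Cd44-positive side goblet-enriched replicate 3 was the highest library, and enterocyte-enriched replicate 1 was the highest of all 9 (log2 difference -7.17, SE 1.02, limma adjusted p = 0.000613). Tgm3, a transglutaminase that crosslinks proteins (chr2:130012349-130050399), stood at 2.82, 16.1 and 13.5 TPM in Lgr5-enriched, 0.423, 1.65 and 33.8 in goblet-enriched and 949, 844 and 673 in enterocyte-enriched replicates 1 to 3. Tgm3 differed by -6.85 (SE 0.90, limma adjusted p = 0.00044). Car4, the membrane carbonic anhydrase of the colonocyte surface (chr11:84957786-84966044), stood at 7.22, 5.87 and 12.8 TPM in the Lgr5-enriched, 0.27, 0.583 and 32.2 in the goblet-enriched and 1992, 330.4 and 562 in the enterocyte-enriched libraries. Car4 differed by -6.88 (SE 0.99, limma adjusted p = 0.000639). Without goblet-enriched replicate 3 the differences of Saa1, Tgm3 and Car4 were -7.89, -7.54 and -7.64. Without enterocyte-enriched replicate 1 those of Saa1 and Car4 were -6.25 and -6.14, and without enterocyte-enriched replicate 2 that of Saa1 was -7.79.

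Krt20, the keratin of the upper crypt (chr11:99428403-99438150), stood at 18.6, 8.02 and 13.9 TPM in the Lgr5-enriched, 1.91, 5.01 and 35.6 in the goblet-enriched and 1594, 421 and 623 in the enterocyte-enriched libraries. Goblet-enriched replicate 3 was the highest Cd44-positive library and still far below every Cd44-negative one (log2 difference -6.10, SE 0.73, limma adjusted p = 0.000295). Aqp8, a water channel of the colonocyte (chr7:123462291-123468004), stood at 5.8, 3.33 and 2.99 TPM in Lgr5-enriched, 0.354, 0.892 and 7.94 in goblet-enriched and 619, 172 and 174 in enterocyte-enriched replicates 1 to 3, and its difference was -6.15 (SE 0.62, limma adjusted p = 0.000163), or -5.54 without enterocyte-enriched replicate 1. Slc37a2, a sugar phosphate exchanger, Ceacam20, an adhesion molecule of microvilli, and Slc9a3, the sodium-proton exchanger of salt absorption, differed by -5.94, -5.78 and -5.16. Slc9a3 stood at 0.577, 0.828 and 1.43 TPM in the Lgr5-enriched, 0.0704, 0.0761 and 3.11 in the goblet-enriched and 107, 43.2 and 53.7 in the enterocyte-enriched libraries, again with goblet-enriched replicate 3 highest among the Cd44-positive libraries. The serine protease Prss30 and the cytochrome P450 genes Cyp2d34, Cyp2d12 and Cyp2c55, members of enzyme families that oxidise drugs and lipids, complete the 12. Cyp2c55 stood at 2.5, 21.9 and 11.1 TPM in the Lgr5-enriched, 0.0882, 1.05 and 14.1 in the goblet-enriched and 249, 475 and 263 in the enterocyte-enriched libraries. Cyp2c55 differed by -5.80 (SE 0.82, limma adjusted p = 0.000586). For Cyp2d34 and Cyp2d12, near-identical copies make the split of reads uncertain. Without enterocyte-enriched replicate 1 the differences of Prss30 and Cyp2d12 were -5.19 and -4.57 in place of -5.83 and -5.31.

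**Figure D2:**
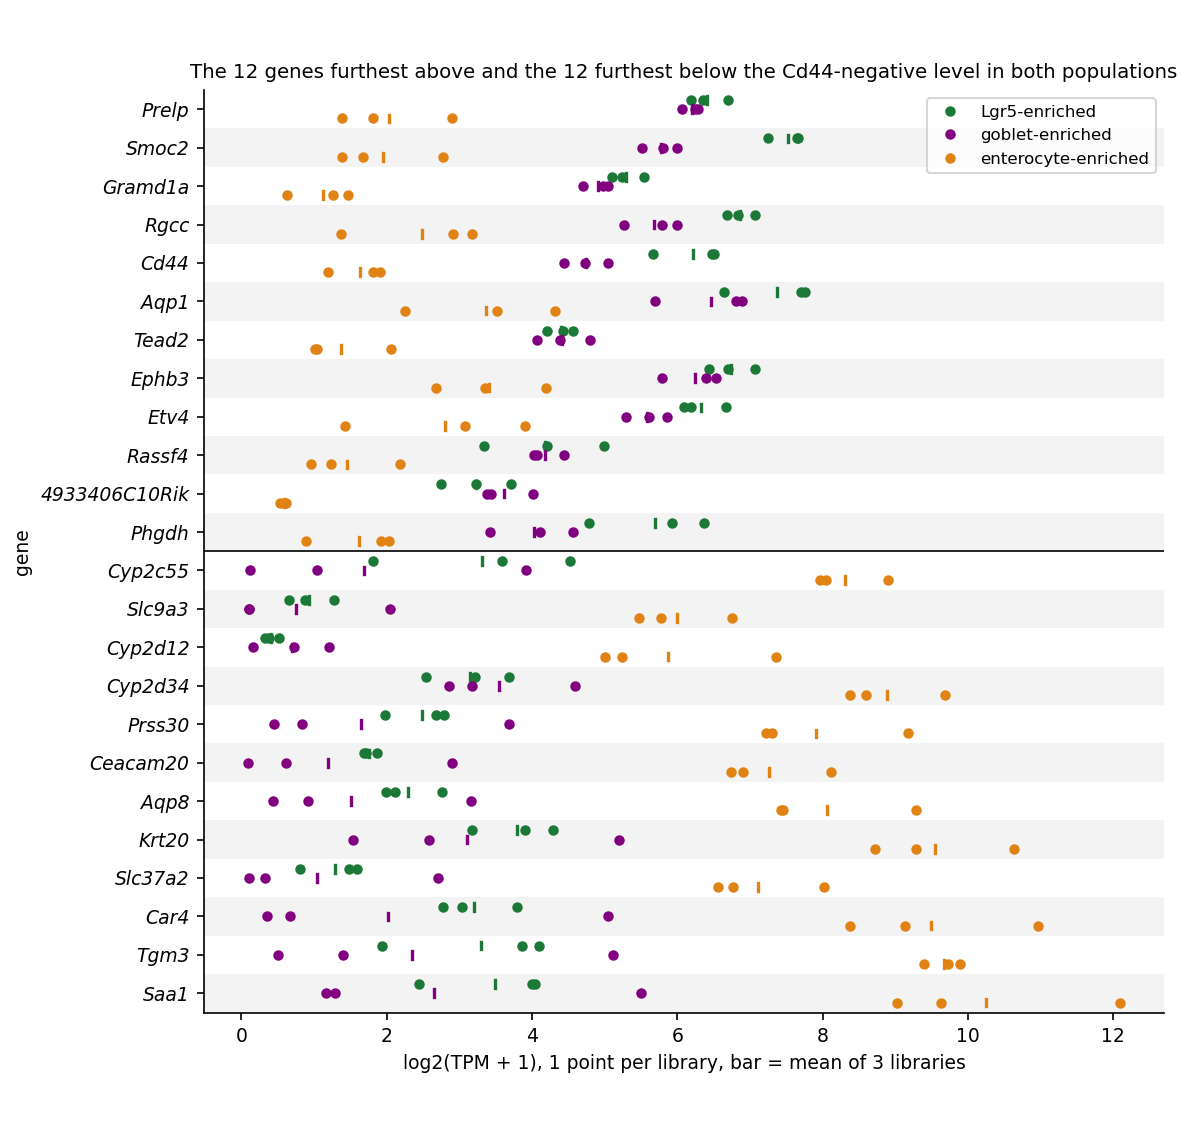
Values of the 12 shared higher genes (above the line) and the 12 shared lower genes (below it) with the largest smaller-of-2 difference, as log2(TPM + 1) on the horizontal axis, with 1 point per library, colour for the population and a bar at the mean of 3 libraries. No orange point overlaps a green or purple one within a gene, and among the lower genes 1 goblet-enriched library, replicate 3, lies to the right of the other 2.

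Some shared genes with a size of at least 2 had almost the same level in both Cd44-positive populations. Among the higher genes these were Rassf4, Tead2, Amotl1, a scaffold of the Hippo pathway, Hspg2, the basement membrane proteoglycan perlecan, Nt5dc2 and Lrp8, a lipoprotein receptor. Their goblet minus Lgr5 differences ran from -0.02 to 0.15, and none was called. Amotl1 stood at 8.41, 10.2 and 12 TPM in Lgr5-enriched, 7.39, 13.4 and 9.84 in goblet-enriched and 0.721, 1.52 and 2 in enterocyte-enriched replicates 1 to 3, so both populations covered the same range. Amotl1 differed by 2.23 (SE 0.24, limma adjusted p = 0.0002). Among the lower genes they were Sprr2a3, a cornified envelope protein, Dhrs9, a retinol dehydrogenase, Mgll, the monoglyceride lipase, Sp100, Pdzk1ip1 and Lyz2, the lysozyme of macrophages. Mgll stood at 0.745, 0.223 and 0.23 TPM in the Lgr5-enriched, 0.493, 0.205 and 0.376 in the goblet-enriched and 6.34, 7.67 and 5.83 in the enterocyte-enriched libraries. Mgll differed by -2.47 (SE 0.19). It and Dhrs9 reached 1 TPM only in the Cd44-negative libraries and entered the test through them, so their calls are no support. Pdzk1ip1, a small membrane protein, stood at 30.3, 72 and 58.3 TPM in the Lgr5-enriched, 40.4, 58.6 and 54.7 in the goblet-enriched and 266, 218 and 193 in the enterocyte-enriched libraries. Pdzk1ip1 differed by -2.13 (SE 0.25, limma adjusted p = 0.000295). These 12 were picked for their even level, so its size is no test.

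The genes of cell division came next. Counts in this and the later lists stand against the shares of all tested genes, 25.6% shared higher and 10.3% shared lower. Under median-of-ratios scaling these shares were 14% and 18.3%. Calls between the sides stand against 37.7% higher and 14.6% lower of all tested genes. Calls of goblet-enriched against Lgr5-enriched cells stand against 10.7% higher and 23.6% lower, or 14.3% and 12% under median-of-ratios scaling. Of 40 tested mitosis genes 39 were shared higher and none lower, with a median difference of 1.68 against 0.29 over all genes, and 35 were shared under median-of-ratios scaling. Mki67, the proliferation antigen (chr7:135689784-135716361), stood at 221, 195 and 226 TPM in Lgr5-enriched, 121, 112 and 124 in goblet-enriched and 35.3, 31.7 and 52.9 in enterocyte-enriched replicates 1 to 3, in 3 separate steps (log2 difference 2.0, SE 0.16, limma adjusted p = 9.11e-05, and goblet minus Lgr5 -0.84, SE 0.18, limma adjusted p = 0.00739). Bub1, a spindle checkpoint kinase (chr2:127801122-127831865), stood at 38.1, 20.4 and 29.2 TPM in the Lgr5-enriched, 17.2, 9.74 and 15.5 in the goblet-enriched and 4.41, 2.27 and 5.58 in the enterocyte-enriched libraries, and Ttk, another checkpoint kinase, at 30.9, 19.7 and 28.9 TPM in the Lgr5-enriched, 20.9, 14.8 and 16.1 in the goblet-enriched and 4.07, 3.39 and 7.43 in the enterocyte-enriched libraries. Both had the same order of populations, and for Ttk the Lgr5-enriched and goblet-enriched libraries overlapped. Spc25, a kinetochore subunit at 30.7, 27 and 39.8 TPM in Lgr5-enriched, 21.8, 15.1 and 25 in goblet-enriched and 14, 8.95 and 17.1 in enterocyte-enriched replicates 1 to 3, was called (log2 difference 0.93, SE 0.23, limma adjusted p = 0.00844) and was the 1 member whose libraries overlapped. Its call ended under quantile normalization (0.62, limma adjusted p = 0.0522). In goblet-enriched against Lgr5-enriched cells 26 of the 40 were called lower and 1 higher. Within each replicate number the goblet-enriched level lay above the enterocyte-enriched one for all 40. The share of all tested genes with that order was not counted, so this is a description only. The Cd44-negative libraries were not free of these transcripts, and 38 of the 40 were highest there in replicate 3.

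All 41 tested DNA replication genes were called higher, against 37.7% of all tested genes. Only 18 were shared, since 23 overlapped between goblet-enriched and enterocyte-enriched libraries. The median difference was 2.08 for Lgr5-enriched and 0.82 for goblet-enriched cells against the enterocyte-enriched ones. In goblet-enriched against Lgr5-enriched cells 38 of the 41 were called lower, against 23.6% of all tested genes (12% under median-of-ratios scaling). Mcm4, a subunit of the replicative helicase (chr16:15623897-15637400), stood at 108, 74.9 and 115 TPM in the Lgr5-enriched, 30.4, 33.7 and 46.2 in the goblet-enriched and 15.1, 10.4 and 23.1 in the enterocyte-enriched libraries. Mcm4 differed by 1.89 (SE 0.25, limma adjusted p = 0.000433). Mcm6, of the same helicase, stood at 221, 179 and 288 TPM in the Lgr5-enriched, 46.4, 64.9 and 78.7 in the goblet-enriched and 20.7, 20.1 and 52.2 in the enterocyte-enriched libraries, where goblet-enriched replicate 1 fell below enterocyte-enriched replicate 3. Mcm6 differed by 2.04 (SE 0.31, limma adjusted p = 0.000826). Rfc1, the large subunit of the clamp loader, was near level in the 2 Cd44-positive populations at 59.4, 53.3 and 69.6 TPM in Lgr5-enriched, 60.9, 52.5 and 54.9 in goblet-enriched and 23.5, 22.5 and 29.4 in enterocyte-enriched replicates 1 to 3. Rfc1 differed by 1.19 (SE 0.13, limma adjusted p = 0.000217). The count of 18 rested on 2 libraries: it was 38 without goblet-enriched replicate 1 and also 38 without enterocyte-enriched replicate 3. Over all tested genes the shared higher count rose from 3301 to 3901 and 3542 in these fits. Goblet-enriched replicate 1 was the lowest of its population for 28 of the 41 genes and enterocyte-enriched replicate 3 the highest of its population for 40. Within each replicate number 38 of the 41 were higher in goblet-enriched than in enterocyte-enriched cells, again without a share of all tested genes to set beside it. Rfc2 was called with overlap (log2 difference 0.56, SE 0.21, limma adjusted p = 0.0492), and its call ended under both other scalings and without replicate 2 or 3 of either Cd44-positive population or replicate 1 or 2 of the enterocyte-enriched one (differences of 0.43 to 0.58).

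The promoters of these 2 gene groups differed in short sequence motifs. RefSeq windows of 250 bases before to 50 after a transcription start (GRCm38.p6) were matched by symbol to 9643 of the 12888 tested genes, and a gene counted as holding a motif when any of its windows held it on either strand. The E2F letters searched were TTTCCCGC and TTTGGCGC, the CHR element was TTTGAA, the CCAAT box CCAAT and the TATA box TATAAA, and none of these strings contains another. E2F factors switch on genes at the entry into S phase, and the CHR element lies in promoters of genes that peak in mitosis. The E2F letters stood in 38.2% of 34 replication promoters, 5.88% of 34 mitosis promoters and 3.37% of all. The CHR letters stood in 20.6%, 76.5% and 14.3%, and the CCAAT box in 67.7%, 76.5% and 43.0%. A match is a description of letters and not a site of binding. For the 2 shared members of each list with the largest difference and a match, the 250 bases before the start are shown 5′ to 3′ in the direction of the gene, with the motif in capitals.
Pola1 promoter (chrX:93632156-93632405, minus strand): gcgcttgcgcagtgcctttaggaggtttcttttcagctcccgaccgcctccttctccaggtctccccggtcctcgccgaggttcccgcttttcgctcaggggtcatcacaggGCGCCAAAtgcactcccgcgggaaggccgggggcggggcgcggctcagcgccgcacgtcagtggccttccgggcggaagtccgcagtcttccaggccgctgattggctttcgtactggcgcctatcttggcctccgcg
Gins3 promoter (chr8:95633309-95633558, plus strand): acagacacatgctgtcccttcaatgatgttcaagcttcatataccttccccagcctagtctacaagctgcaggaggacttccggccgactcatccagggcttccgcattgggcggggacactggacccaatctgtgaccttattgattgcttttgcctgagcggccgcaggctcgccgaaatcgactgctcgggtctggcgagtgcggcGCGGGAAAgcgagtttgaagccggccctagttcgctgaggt
Mki67 promoter (chr7:135716380-135716629, minus strand): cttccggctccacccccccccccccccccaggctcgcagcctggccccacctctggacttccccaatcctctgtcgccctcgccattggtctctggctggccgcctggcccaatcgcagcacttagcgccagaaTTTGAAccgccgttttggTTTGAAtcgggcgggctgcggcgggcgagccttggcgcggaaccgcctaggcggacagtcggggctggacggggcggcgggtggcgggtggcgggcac
Smc2 promoter (chr4:52438971-52439220, plus strand): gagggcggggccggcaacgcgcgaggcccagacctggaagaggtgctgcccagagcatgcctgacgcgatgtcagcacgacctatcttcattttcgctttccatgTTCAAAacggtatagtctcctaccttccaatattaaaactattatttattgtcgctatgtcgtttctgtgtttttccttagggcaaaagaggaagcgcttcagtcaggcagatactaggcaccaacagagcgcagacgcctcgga
Pola1, the catalytic subunit of DNA polymerase alpha, has the second E2F string on the opposite strand, starting 138 bases before the start, and Gins3, of the replicative helicase complex, the first string on the opposite strand at 41 bases. Mki67 has 2 CHR matches, at 116 and 98 bases, and Smc2, a condensin subunit, 1 on the opposite strand at 145 bases. Pola1 stood at 36, 28.1 and 40.7 TPM in the Lgr5-enriched, 9.84, 8.96 and 13.5 in the goblet-enriched and 4.47, 3.58 and 6.94 in the enterocyte-enriched libraries (log2 difference 1.80, SE 0.22, limma adjusted p = 0.000295). Gins3 stood at 10.3, 6.59 and 12.3 TPM in the Lgr5-enriched, 4.8, 4.24 and 6.1 in the goblet-enriched and 2.07, 2.22 and 3.47 in the enterocyte-enriched libraries (log2 difference 1.16, SE 0.22, limma adjusted p = 0.00245). Smc2 stood at 54.3, 26.9 and 44.7 TPM in Lgr5-enriched, 31.9, 17.9 and 26.5 in goblet-enriched and 10.5, 4.01 and 10.7 in enterocyte-enriched replicates 1 to 3. Smc2 differed by 1.90 (SE 0.33, limma adjusted p = 0.00151). All 3 genes had every Cd44-positive library above every Cd44-negative one, and Pola1 and Gins3 were also called lower in goblet-enriched than in Lgr5-enriched cells.

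Growth genes followed the same direction. Of 39 tested ribosome biogenesis genes 32 were shared higher, with a median difference of 1.24, and 28 were so under median-of-ratios scaling. Gnl3, the nucleolar protein nucleostemin (chr14:31012433-31019152), stood at 164, 125 and 129 TPM in the Lgr5-enriched, 133, 115 and 100.1 in the goblet-enriched and 16, 40.4 and 35.1 in the enterocyte-enriched libraries. Gnl3 differed by 2.11 (SE 0.26, limma adjusted p = 0.000334). Gar1, a component of the complex that pseudouridylates ribosomal RNA, stood at 94.8, 74 and 86.3 TPM in the Lgr5-enriched, 63.6, 64.2 and 58.9 in the goblet-enriched and 14.6, 23.8 and 26.7 in the enterocyte-enriched libraries. Gar1 differed by 1.74 (SE 0.18, limma adjusted p = 0.000176). In both genes the lowest Cd44-positive library was more than 2 times the highest Cd44-negative one. Utp20 was the 1 member called lower (log2 difference -0.50, SE 0.17, limma adjusted p = 0.0326), at 59, 77.7 and 83 TPM in Lgr5-enriched, 15.9, 25.4 and 22.4 in goblet-enriched and 53.3, 52.2 and 62.2 in enterocyte-enriched replicates 1 to 3, where the goblet-enriched libraries lay below both other populations. Its call ended without Lgr5-enriched replicate 1 (-0.43, limma adjusted p = 0.0509) or any enterocyte-enriched library (-0.53, -0.55 and -0.42, limma adjusted p = 0.0675, 0.0608 and 0.121).

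Of 33 tested genes of nucleotide and one-carbon synthesis 16 were shared higher, 10 more were called higher with overlap, and Aprt, which salvages adenine, was called lower. Phgdh (chr3:98313170-98339990) stood at 81.1, 26.5 and 59.6 TPM in the Lgr5-enriched, 16.2, 9.72 and 22.5 in the goblet-enriched and 2.78, 0.852 and 3.07 in the enterocyte-enriched libraries. Phgdh differed by 3.25 (SE 0.40, limma adjusted p = 0.000343). Psat1, the next enzyme of serine synthesis, stood at 47.6, 14.7 and 22.6 TPM in the Lgr5-enriched, 23.9, 11 and 19.1 in the goblet-enriched and 4.34, 3.08 and 5.25 in the enterocyte-enriched libraries (log2 difference 2.08, SE 0.36, limma adjusted p = 0.00142), and Cad, which starts pyrimidine synthesis, at 45.3, 54.7 and 71.2 TPM in Lgr5-enriched, 37.4, 47.6 and 56.2 in goblet-enriched and 8.72, 12.4 and 17.7 in enterocyte-enriched replicates 1 to 3. Cad differed by 1.95 (SE 0.23, limma adjusted p = 0.000283). For Phgdh and Psat1, replicate 2 was the lowest library in each of the 3 populations. Impdh1, an enzyme of guanine nucleotide synthesis, was highest in goblet-enriched cells at 41.5, 42.7 and 48.6 TPM in the Lgr5-enriched, 79.3, 83 and 102 in the goblet-enriched and 7.01, 12.2 and 19.3 in the enterocyte-enriched libraries, against 190.1, 183 and 209 TPM in the Lgr5-enriched, 57.2, 108 and 109.8 in the goblet-enriched and 29.6, 63.6 and 67 in the enterocyte-enriched libraries for its isozyme Impdh2, which was called with overlap. Impdh2 differed by 1.36 (SE 0.29, limma adjusted p = 0.00396). The purine genes Ppat and Paics were above all Cd44-negative libraries in Lgr5-enriched cells, while in goblet-enriched cells Ppat was below them all and Paics overlapped them. Neither was called between the sides (log2 difference 0.28, SE 0.18, limma adjusted p = 0.223, and log2 difference 0.42, SE 0.23, limma adjusted p = 0.144), and Paics was called with replicate number as a block (limma adjusted p = 0.0364).

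**Figure D3:**
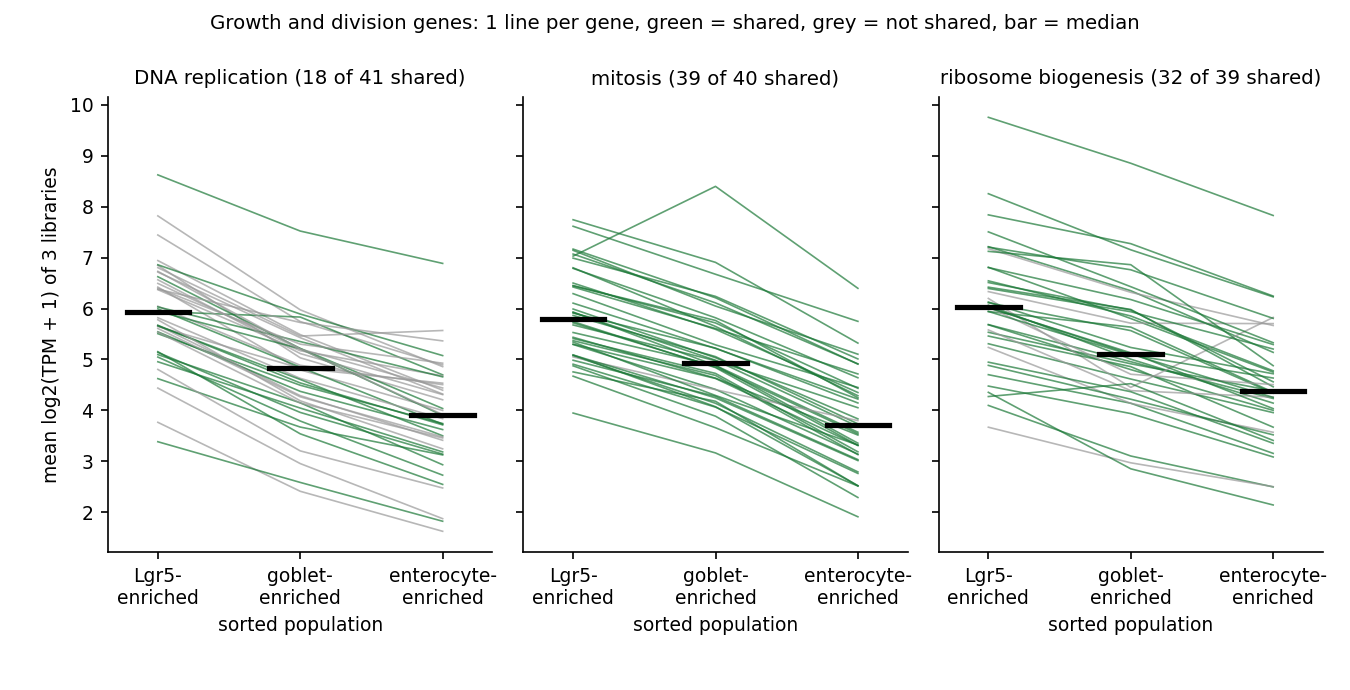
Mean log2(TPM + 1) of 3 libraries for each tested gene of 3 lists, by sorted population, with shared genes in green, others in grey and a bar at the median of the list. The lines descend from Lgr5-enriched over goblet-enriched to enterocyte-enriched cells in most genes, and 18 of 41 replication, 39 of 40 mitosis and 32 of 39 ribosome biogenesis genes are shared.

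Genes of cell cycle exit were divided. Of 21 tested members 7 were shared lower (Cdkn1a, Cdkn2b, Ccng2, Btg1, Rb1, Mxd1 and Mxi1) and 2 shared higher (Cdkn1b and Ccng1). Among all tested genes 10.3% were shared lower and 25.6% higher, so the higher count is below the background. Cdkn2b, an inhibitor of the G1 kinases that Tgf-beta induces (chr4:89306299-89311039), stood at 7.49, 15.7 and 10.7 TPM in Lgr5-enriched, 5.04, 4.35 and 8.06 in goblet-enriched and 125, 125 and 112 in enterocyte-enriched replicates 1 to 3. Cdkn2b differed by -3.78 (SE 0.23, limma adjusted p = 6.49e-05). Mxd1, which competes with Myc for its partner Max (chr6:86647042-86669161), stood at 22.2, 26.8 and 18.4 TPM in the Lgr5-enriched, 32.4, 22.4 and 26.1 in the goblet-enriched and 370.3, 214 and 160.3 in the enterocyte-enriched libraries (log2 difference -3.21, SE 0.25, limma adjusted p = 9.11e-05), and Cdkn1a, the p53 target p21 (chr17:29090976-29100727), at 49.9, 87.6 and 41 TPM in the Lgr5-enriched, 43.4, 58.5 and 45.6 in the goblet-enriched and 387, 304 and 237 in the enterocyte-enriched libraries. Cdkn1a differed by -2.51 (SE 0.24, limma adjusted p = 0.000153). Each Cd44-negative library was above 2 times the highest Cd44-positive library for all 3 genes. The shared higher count was 5 without goblet-enriched replicate 1 and 4 without enterocyte-enriched replicate 3, and it was 1 under median-of-ratios scaling. Ndrg1, a gene induced in differentiation, went opposite ways in the 2 Cd44-positive populations at 14.7, 45.8 and 23.5 TPM in Lgr5-enriched, 305, 449.9 and 331 in goblet-enriched and 109, 142 and 139.6 in enterocyte-enriched replicates 1 to 3.

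Wnt targets and stem cell markers were higher in both Cd44-positive populations. Of 15 tested Wnt targets 10 were shared higher, and of 19 tested stem cell markers 16, with median differences of 1.77 and 2.06. The lists hold Cd44, an antigen of the gates, and Lgr5, which names a gated population. Lgr5, Ascl2 and Mex3a stayed below 1 TPM in every Cd44-negative library. They entered the test through the Cd44-positive side, so their calls between the sides are no independent support for these counts. Lgr5 itself, the stem cell receptor for R-spondins (chr10:115450311-115587780), stood at 31.4, 37 and 44.1 TPM in the Lgr5-enriched, 1, 6.72 and 7.72 in the goblet-enriched and 0.0442, 0 and 0.333 in the enterocyte-enriched libraries. Ascl2, the transcription factor of the stem cell state (chr7:142966829-142969264), stood at 30.4, 50.5 and 37.8 TPM in the Lgr5-enriched, 1.63, 12 and 6.84 in the goblet-enriched and 0, 0.36 and 0.757 in the enterocyte-enriched libraries. Both were many times higher in Lgr5-enriched than in goblet-enriched cells (-2.89, SE 0.49, limma adjusted p = 0.00242, and -2.62, SE 0.51, limma adjusted p = 0.00496), and the goblet-enriched libraries still lay above all Cd44-negative ones. Mex3a, an RNA-binding protein of slow-cycling stem cells, stood at 8.64, 5.93 and 5.93 TPM in Lgr5-enriched, 3.76, 4.95 and 4.36 in goblet-enriched and 0.108, 0.276 and 0.754 in enterocyte-enriched replicates 1 to 3 (log2 difference 2.25, SE 0.21), and Sox9, a factor of the crypt base, at 106, 103 and 111 TPM in the Lgr5-enriched, 86, 94.9 and 114 in the goblet-enriched and 25.3, 41.1 and 50.6 in the enterocyte-enriched libraries. Sox9 differed by 1.42 (SE 0.20, limma adjusted p = 0.000537). Myc stood at 108, 72.7 and 92.3 TPM in the Lgr5-enriched, 74.6, 66.1 and 47.8 in the goblet-enriched and 14.3, 27.8 and 23.7 in the enterocyte-enriched libraries. Myc differed by 1.77 (SE 0.23, limma adjusted p = 0.000406). Rnf43, which removes Wnt receptors from the membrane, was called with overlap at 62.5, 89.2 and 89.9 TPM in Lgr5-enriched, 19.5, 34.9 and 35 in goblet-enriched and 18.1, 24.4 and 25.2 in enterocyte-enriched replicates 1 to 3 (log2 difference 1.07, SE 0.22, limma adjusted p = 0.00335), so the goblet-enriched range reached into the Cd44-negative one. The exception in direction was Tcf7l2, the Tcf factor of the epithelium, which was shared lower with a difference of -1.34 (SE 0.19, limma adjusted p = 0.00061), while Tcf7, which encodes Tcf1, was shared higher with a difference of 2.32 (SE 0.28, limma adjusted p = 0.000323). Both were picked from the list after their values were seen.

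Eph receptors and their ephrin ligands are known to sort cells along the crypt. Of 12 tested members Ephb2, Ephb3 and Ephb4 were shared higher and Ephb6 and Efnb2 shared lower. Of all tested genes 25.6% were shared higher and 10.3% lower, so these counts are near the background. Ephb3 (chr16:21204755-21223305) stood at 85.4, 103 and 134 TPM in the Lgr5-enriched, 54.2, 91 and 83.4 in the goblet-enriched and 5.42, 9.2 and 17.2 in the enterocyte-enriched libraries, with the goblet-enriched range reaching into the Lgr5-enriched one and no Cd44-negative library near either. Ephb3 differed by 3.08 (SE 0.31, limma adjusted p = 0.000164). Efnb2, a ligand of the B receptors (chr8:8617434-8661242), stood at 32.4, 44 and 18.5 TPM in the Lgr5-enriched, 59.8, 45.7 and 19.8 in the goblet-enriched and 100.3, 145 and 87.3 in the enterocyte-enriched libraries (log2 difference -1.66, SE 0.37, limma adjusted p = 0.00485), and Ephb6, a receptor without kinase activity, at 1.15, 2.74 and 1.09 TPM in Lgr5-enriched, 0.42, 0.252 and 1.08 in goblet-enriched and 31.9, 8.9 and 10.7 in enterocyte-enriched replicates 1 to 3. Ephb6 differed by -2.97 (SE 0.39, limma adjusted p = 0.000446). Efna1 was called lower and Efna4 higher with overlap (log2 difference -1.20, SE 0.23, limma adjusted p = 0.00224, and log2 difference 1.56, SE 0.33, limma adjusted p = 0.00369). Lower shared members numbered 4 without Lgr5-enriched replicate 2 and 5 under median-of-ratios scaling.

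BMP signals act mostly in the upper crypt. Of 16 tested members 5 were shared lower, the ligand Bmp2, the inhibitory factors Smad6 and Smad7 and the target genes Id1 and Id3, and 2 were shared higher, the signal carrier Smad5 and the decoy receptor Bambi. Bmp2 (chr2:133552159-133562885) stood at 16.7, 17.8 and 11 TPM in the Lgr5-enriched, 30.6, 15.8 and 11.9 in the goblet-enriched and 80.5, 40.5 and 33.7 in the enterocyte-enriched libraries. Bmp2 differed by -1.50 (SE 0.34, limma adjusted p = 0.00564). Id1, an inhibitor of basic helix-loop-helix factors (chr2:152736251-152737410), stood at 151, 198 and 183 TPM in the Lgr5-enriched, 11.5, 32.5 and 50.8 in the goblet-enriched and 1053, 349.9 and 482 in the enterocyte-enriched libraries, lowest in goblet-enriched cells (log2 difference -3.0, SE 0.45, limma adjusted p = 0.000761, and goblet minus Lgr5 -2.67, SE 0.52, limma adjusted p = 0.00486). Smad6, which blocks the receptor signal, stood at 5.16, 12.8 and 12.8 TPM in Lgr5-enriched, 0.767, 4.46 and 5.34 in goblet-enriched and 21.7, 35.4 and 23.1 in enterocyte-enriched replicates 1 to 3. Smad6 differed by -2.07 (SE 0.43, limma adjusted p = 0.00373). Bambi, a receptor lookalike without a kinase, stood at 9.73, 9.9 and 7.5 TPM in the Lgr5-enriched, 6.16, 8.46 and 8.1 in the goblet-enriched and 0.908, 2.82 and 3.18 in the enterocyte-enriched libraries. Bambi differed by 1.56 (SE 0.26, limma adjusted p = 0.0012). The counts were the same under median-of-ratios scaling. Id4 lay above the Cd44-negative libraries in goblet-enriched cells and below them in Lgr5-enriched cells, at 0.923, 0.249 and 0.321 TPM in the Lgr5-enriched, 45.8, 9.59 and 13.6 in the goblet-enriched and 2.13, 1.48 and 1.36 in the enterocyte-enriched libraries, and Smad4, the common partner of the signal carriers, the other way round, at 204, 216 and 216 TPM in Lgr5-enriched, 97, 81.5 and 80.5 in goblet-enriched and 114, 105 and 119.8 in enterocyte-enriched replicates 1 to 3. Neither was called between the sides (log2 difference 1.01, SE 0.42, limma adjusted p = 0.0663, and log2 difference 0.26, SE 0.10, limma adjusted p = 0.0521), and both were with replicate number as a block (limma adjusted p = 0.0166 and 0.0373). Id2 was called (log2 difference -0.73, SE 0.25, limma adjusted p = 0.0326), and its call ended without Lgr5-enriched replicate 3, goblet-enriched replicate 1 or 3 or the enterocyte-enriched replicates 1 or 2 (-0.64, -0.70, -0.65, -0.62 and -0.57).

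Of 38 tested epithelial transcription factors 10 were shared lower and 5 shared higher. The lower ones include Klf3, Klf4, Nr3c2, Elf3, Ppargc1a, Esrra, Nr1i2, Nr1h3 and Nr1h4, of which Nr3c2 encodes the mineralocorticoid receptor and Ppargc1a and Esrra regulate mitochondrial genes. The higher ones were Grhl2, Ehf, Sox9, Myc and Mycl. Mycl, a paralog of Myc, stood at 31.4, 48.6 and 56.7 TPM in the Lgr5-enriched, 18.5, 40.8 and 27.5 in the goblet-enriched and 6.47, 10 and 13.3 in the enterocyte-enriched libraries. Mycl differed by 1.77 (SE 0.29, limma adjusted p = 0.00124). Foxa3, a goblet cell factor, was called higher only through goblet-enriched cells, at 42.5, 31.7 and 39.9 TPM in the Lgr5-enriched, 183, 169 and 173 in the goblet-enriched and 31, 28.2 and 42.6 in the enterocyte-enriched libraries, where the Lgr5-enriched and enterocyte-enriched libraries overlapped. The higher count was 9 without enterocyte-enriched replicate 3, and the lower count was 14 under median-of-ratios scaling.

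Of 27 tested markers of colonocyte maturation 22 were shared lower and none higher, with a median difference of -3.52. Slc26a3, the chloride-bicarbonate exchanger of the colon (chr12:31390871-31473917), stood at 12.4, 14.4 and 17.3 TPM in Lgr5-enriched, 1.51, 0.716 and 20 in goblet-enriched and 867, 366 and 364 in enterocyte-enriched replicates 1 to 3. Slc26a3 differed by -5.87 (SE 0.69, limma adjusted p = 0.000288). Lypd8, a secreted protein that keeps flagellated bacteria away (chr11:58379043-58390728), stood at 1950.3, 2025 and 2288 TPM in the Lgr5-enriched, 845, 795 and 1508 in the goblet-enriched and 33388, 12191 and 14639.9 in the enterocyte-enriched libraries. Lypd8 differed by -3.65 (SE 0.33, limma adjusted p = 0.000118). It was thus abundant in all libraries, and highest in enterocyte-enriched replicate 1. Tmigd1, a microvillus protein, stood at 1.19, 0.453 and 0.909 TPM in the Lgr5-enriched, 1.67, 0.693 and 1.28 in the goblet-enriched and 46.9, 14.4 and 15.3 in the enterocyte-enriched libraries. Tmigd1 differed by -3.52 (SE 0.36, limma adjusted p = 0.000173). Guca2b, which encodes uroguanylin, ran against the list, at 14.8, 15.1 and 10.9 TPM in Lgr5-enriched, 133, 202 and 147 in goblet-enriched and 24.6, 36.5 and 41.8 in enterocyte-enriched replicates 1 to 3, highest in goblet-enriched and lowest in Lgr5-enriched cells (log2 difference 0.48, SE 0.20, limma adjusted p = 0.0731), and with replicate number as a block it was called higher (limma adjusted p = 0.0456). It was also called without enterocyte-enriched replicate 3 (0.63, limma adjusted p = 0.0481). Clca4a was called with overlap at 16.2, 29.2 and 36.6 TPM in the Lgr5-enriched, 0.351, 3.98 and 6.33 in the goblet-enriched and 223, 30.8 and 47 in the enterocyte-enriched libraries, and its difference was -1.98 without enterocyte-enriched replicate 1 in place of -2.82. In the TATA box search, 45.8% of 24 promoters of the list held the letters, against 8.92% of all. The 250 bases before the start are shown for its 2 members with the largest difference and a match, with the TATA letters in capitals.
Krt20 promoter (chr11:99438154-99438403, minus strand): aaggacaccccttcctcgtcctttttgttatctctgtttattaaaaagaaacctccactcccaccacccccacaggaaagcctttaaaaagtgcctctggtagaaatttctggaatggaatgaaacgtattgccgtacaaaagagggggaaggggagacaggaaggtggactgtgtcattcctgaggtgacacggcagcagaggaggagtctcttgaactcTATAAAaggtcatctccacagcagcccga
Cyp2c55 promoter (chr19:39006769-39007018, plus strand): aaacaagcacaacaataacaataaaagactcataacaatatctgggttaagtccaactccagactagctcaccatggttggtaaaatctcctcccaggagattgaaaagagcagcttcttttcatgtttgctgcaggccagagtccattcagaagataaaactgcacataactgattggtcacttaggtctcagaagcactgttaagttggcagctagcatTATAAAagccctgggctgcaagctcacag
The match begins 29 bases before the start in both, on the strand of the gene. Both genes had their Cd44-negative libraries above all others, as given above.

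Brush border genes, 28 tested, were shared lower in 16 members and shared higher in 2, Mtcl1, a microtubule crosslinker, and Dpp4, a dipeptidyl peptidase. Mep1b, a subunit of the brush border protease meprin, stood at 7.58, 13.8 and 13.3 TPM in the Lgr5-enriched, 1.3, 2.07 and 4.15 in the goblet-enriched and 164, 100.3 and 82.5 in the enterocyte-enriched libraries. Mep1b differed by -4.14 (SE 0.31, limma adjusted p = 9.11e-05). Cdhr5, a cadherin that ties microvilli together (chr7:141269083-141276786), stood at 84.1, 194 and 175 TPM in Lgr5-enriched, 162, 203 and 236 in goblet-enriched and 1076, 720.5 and 699 in enterocyte-enriched replicates 1 to 3. Cdhr5 differed by -2.28 (SE 0.27, limma adjusted p = 0.000295). Alpi, the intestinal alkaline phosphatase, was listed at 0 TPM in all goblet-enriched libraries, at 0.328, 0.265 and 0 TPM in the Lgr5-enriched and at 10.5, 4.40 and 3.35 TPM in the enterocyte-enriched ones (log2 difference -2.57, SE 0.29). It reached 1 TPM only in the enterocyte-enriched libraries and entered the test through them, so its call and separation are no support. Mep1b and Cdhr5 separated the sides without overlap. Pls1, an actin bundler, was called lower with overlap (log2 difference -0.73, SE 0.27, limma adjusted p = 0.0448). The call of Pls1 ended without enterocyte-enriched replicate 1 (-0.41, limma adjusted p = 0.197), and also without Lgr5-enriched replicate 2 or 3, goblet-enriched replicate 2 or 3 or enterocyte-enriched replicate 3 (-0.87 to -0.65) and under quantile normalization (-0.73).

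Of 26 tested genes of ion and water transport 3 were shared higher and 14 shared lower. Shared higher were Aqp1, Slc12a2, the chloride entry path of secretion, and Kcnn4, a potassium channel that supports it. The lower ones include the absorptive exchangers Slc26a3, Slc9a2 and Slc9a3, the sodium channel subunit Scnn1a, the sodium pump subunit Atp1b1 and the butyrate carriers Slc16a1 and Slc5a8. The chloride channels Ano1 and Clcn2 and the water channel Aqp4 were shared lower too. Atp12a, the colonic proton-potassium pump (chr14:56365068-56388550), stood at 3.66, 5.85 and 2.87 TPM in the Lgr5-enriched, 1.2, 2.4 and 4.6 in the goblet-enriched and 389, 96.3 and 78 in the enterocyte-enriched libraries (log2 difference -5.11, SE 0.50, limma adjusted p = 0.000157, and -4.40 without enterocyte-enriched replicate 1). Cftr, the chloride channel, was high in Lgr5-enriched cells alone, at 190.0, 251 and 239 TPM in the Lgr5-enriched, 26.5, 38.5 and 38.3 in the goblet-enriched and 45.9, 89.3 and 84.8 in the enterocyte-enriched libraries, and was not called between the sides (log2 difference 0.32, SE 0.23, limma adjusted p = 0.262) but was with replicate number as a block (limma adjusted p = 0.0347). Kcnq1, a potassium channel, stood at 137, 239 and 279 TPM in Lgr5-enriched, 1.85, 27.5 and 35 in goblet-enriched and 42.7, 55.1 and 70.6 in enterocyte-enriched replicates 1 to 3, above the Cd44-negative libraries in Lgr5-enriched and below them in goblet-enriched cells. Best2, a bicarbonate channel of goblet cells, was called lower (log2 difference -2.29, SE 0.45, limma adjusted p = 0.00266) through the Lgr5-enriched libraries, at 0.996, 4.29 and 2.81 TPM in the Lgr5-enriched, 39.4, 165 and 79 in the goblet-enriched and 57.3, 106 and 85.3 in the enterocyte-enriched libraries.

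Junction genes, 26 tested, were shared lower in 7 members and shared higher in 2, which were both claudins that form pores. Cldn2, the cation and water pore (chrX:139800828-139811386), stood at 371, 331 and 399 TPM in the Lgr5-enriched, 280.1, 201 and 185 in the goblet-enriched and 44, 71.5 and 102 in the enterocyte-enriched libraries (log2 difference 2.03, SE 0.24, limma adjusted p = 0.000287), and Cldn15, the sodium pore, at 219.7, 260.3 and 312 TPM in Lgr5-enriched, 496, 543 and 587 in goblet-enriched and 109, 143 and 193 in enterocyte-enriched replicates 1 to 3. Cldn15 differed by 1.37 (SE 0.18, limma adjusted p = 0.000456). Cldn8, a claudin that seals the junction (chr16:88560828-88563183), stood at 33.6, 52.8 and 43.6 TPM in the Lgr5-enriched, 5.87, 12.3 and 15.1 in the goblet-enriched and 393, 167 and 163 in the enterocyte-enriched libraries (log2 difference -3.31, SE 0.35, limma adjusted p = 0.000184), and Cdh17, the liver-intestine cadherin, at 282, 295 and 270.4 TPM in the Lgr5-enriched, 247, 204 and 181 in the goblet-enriched and 721, 497 and 462 in the enterocyte-enriched libraries. Cdh17 differed by -1.17 (SE 0.16, limma adjusted p = 0.000491). Cldn2 and Cldn8 were thus at opposite ends, with no overlap in either. Under median-of-ratios scaling 14 members were shared lower and 1 higher, since Cldn15 no longer met the rule. Of 7 tested keratins Krt8, Krt19 and Krt20 were shared lower. Krt19 stood at 2131, 3616 and 2934 TPM in Lgr5-enriched, 1334, 1556 and 1444 in goblet-enriched and 9249, 7751 and 7484 in enterocyte-enriched replicates 1 to 3 (log2 difference -2.01, SE 0.19, limma adjusted p = 0.000126), while Krt7 and Krt18 were called higher with Lgr5-enriched libraries inside the Cd44-negative range. The call of Krt18 (log2 difference 0.50, SE 0.16, limma adjusted p = 0.0235) ended under median-of-ratios scaling (0.20, limma adjusted p = 0.27) and without enterocyte-enriched replicate 1 or 3 (0.42 and 0.52, limma adjusted p = 0.0768 and 0.0566).

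Detoxification genes, 27 tested, were shared lower in 14 members and shared higher in none, with a median of -1.09 for Lgr5-enriched and -2.24 for goblet-enriched cells. Ces2e, a carboxylesterase (chr8:104926260-104934672), stood at 7.81, 30 and 20.9 TPM in the Lgr5-enriched, 0.13, 2.81 and 7.74 in the goblet-enriched and 269, 141 and 115 in the enterocyte-enriched libraries (log2 difference -4.40, SE 0.62, limma adjusted p = 0.000597), and Cyp3a13, a drug-oxidising P450, at 8.69, 8.94 and 7.87 TPM in the Lgr5-enriched, 1.31, 1.35 and 3.08 in the goblet-enriched and 88, 66.7 and 48.7 in the enterocyte-enriched libraries. Cyp3a13 differed by -3.70 (SE 0.24, limma adjusted p = 6.49e-05). Cyp4f14, which oxidises fatty acid derivatives, stood at 5.65, 7.37 and 9.29 TPM in Lgr5-enriched, 0.146, 0.315 and 2.49 in goblet-enriched and 115, 66.9 and 66.5 in enterocyte-enriched replicates 1 to 3. Cyp4f14 differed by -4.41 (SE 0.36, limma adjusted p = 9.22e-05). Goblet-enriched cells had the lowest levels of all 3. Nqo1, a quinone reductase, stood at 79, 75.4 and 103 TPM in the Lgr5-enriched, 1.13, 8.18 and 14.3 in the goblet-enriched and 33.9, 53.9 and 56.5 in the enterocyte-enriched libraries, above the Cd44-negative level in Lgr5-enriched and below it in goblet-enriched cells, and was not called. Nqo1 differed by -1.0 (SE 0.52, limma adjusted p = 0.134).

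Mitochondrial genes were lower by small and even steps. Of 37 tested nuclear-encoded genes of oxidative phosphorylation 31 were shared lower, Ndufa4 alone was shared higher, and the median difference was -0.64. Under median-of-ratios scaling 36 were shared lower and none higher. Cox6c, a subunit of cytochrome c oxidase (chr15:35925886-35938246), stood at 802, 748 and 767 TPM in the Lgr5-enriched, 646, 550.3 and 559 in the goblet-enriched and 1241, 1384 and 1349 in the enterocyte-enriched libraries, with little spread within each population. Cox6c differed by -0.98 (SE 0.11, limma adjusted p = 0.000213). Ndufa1, a subunit of complex I, stood at 247, 277 and 233 TPM in Lgr5-enriched, 241, 234 and 233 in goblet-enriched and 389, 480.1 and 442 in enterocyte-enriched replicates 1 to 3 (log2 difference -0.84, SE 0.10, limma adjusted p = 0.00035), and Cox6a1 at 1084, 1255 and 1350.0 TPM in the Lgr5-enriched, 981, 1121 and 1279.6 in the goblet-enriched and 2199, 2173 and 2191 in the enterocyte-enriched libraries. Cox6a1 differed by -0.90 (SE 0.13, limma adjusted p = 0.000666). Atp5a1, of the ATP synthase, was called with overlap (log2 difference -0.30, SE 0.11, limma adjusted p = 0.0419), and its call ended under quantile normalization and in 8 of the 9 fits that left out 1 library (differences of -0.34 to -0.28). Cycs, the electron carrier cytochrome c, was shared (log2 difference -0.90, SE 0.25, limma adjusted p = 0.013) but not called without enterocyte-enriched replicate 1 (-0.74, limma adjusted p = 0.0623). Of 28 tested genes of fatty acid oxidation and ketogenesis 12 were shared lower and 1, Acsl1, shared higher. Slc25a20, which carries acylcarnitines into mitochondria (chr9:108662088-108684641), stood at 21.6, 32.3 and 24.4 TPM in the Lgr5-enriched, 18.8, 20.2 and 21.4 in the goblet-enriched and 269.5, 136 and 132 in the enterocyte-enriched libraries (log2 difference -2.84, SE 0.23, limma adjusted p = 9.22e-05), a larger step than that of Cpt1a, the gate of the pathway, at 101, 166 and 151 TPM in Lgr5-enriched, 116, 109 and 99.3 in goblet-enriched and 220.2, 267 and 219 in enterocyte-enriched replicates 1 to 3. Cpt1a differed by -0.94 (SE 0.16, limma adjusted p = 0.00135). Under median-of-ratios scaling 22 were shared lower and none higher.

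Genes of cell death and shedding, 28 tested, were shared lower in 9 members and shared higher in 3. Bcl2, the survival factor (chr1:106538178-106714274), was among the higher ones at 11.8, 12.5 and 14.3 TPM in the Lgr5-enriched, 13.3, 18.9 and 16.1 in the goblet-enriched and 2.04, 3.32 and 4.32 in the enterocyte-enriched libraries (log2 difference 1.89, SE 0.20, limma adjusted p = 0.000189), and Casp6 and Birc2 were the others, which under median-of-ratios scaling left Bcl2 alone. Gsdmc4, a gasdermin whose cleaved form makes pores in membranes (chr15:63891264-63912297), stood at 155, 656 and 1214 TPM in the Lgr5-enriched, 8.08, 51.3 and 194 in the goblet-enriched and 3442, 2389.6 and 2873 in the enterocyte-enriched libraries. Gsdmc4 differed by -4.25 (SE 0.89, limma adjusted p = 0.00383). Its neighbours Gsdmc2 and Gsdmc3 differed by -4.17 and -4.10 (-3.56 and -3.48 without goblet-enriched replicate 1), and reads may be split between these near-identical genes. All 3 varied widely within the Cd44-positive populations, with replicate 1 lowest in both. The lower members also include the caspase Casp1, Gsdmd, Fas, Bcl2l1 and Mcl1.

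Mucosal defence genes, 27 tested, were shared lower in 5 members (Lypd8, Saa1, Il18, Il1rn and Zg16) and shared higher in 1, Nod2, a sensor of bacterial cell wall. Of all tested genes 10.3% were shared lower and 25.6% higher. Under median-of-ratios scaling 6 members were shared lower, near the 18.3% of all genes. Il18, a cytokine of the epithelium (chr9:50554827-50581840), stood at 39.7, 70.5 and 67 TPM in Lgr5-enriched, 14.2, 20.6 and 36.4 in goblet-enriched and 478, 449 and 472 in enterocyte-enriched replicates 1 to 3, and its lowest Cd44-negative library was far above the highest Cd44-positive one. Il18 differed by -3.67 (SE 0.27, limma adjusted p = 9.11e-05). Nox1, the superoxide-producing oxidase of the colon, was called higher with overlap at 762, 156 and 315 TPM in the Lgr5-enriched, 55.6, 22.1 and 38.1 in the goblet-enriched and 27.7, 4.07 and 16.1 in the enterocyte-enriched libraries (log2 difference 3.04, SE 0.61, limma adjusted p = 0.0031, and 2.33 without enterocyte-enriched replicate 2). Higher shared members numbered 2 without goblet-enriched replicate 2 and 3 without enterocyte-enriched replicate 1. Saa3 was called with overlap (log2 difference -2.82, SE 0.77, limma adjusted p = 0.0133) but not without enterocyte-enriched replicate 1 or 2 (-2.12 and -2.43, limma adjusted p = 0.0659 and 0.0561).

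Of 30 tested interferon-stimulated genes 8 were shared lower and none higher. Ifit1, an RNA-binding antiviral protein (chr19:34640871-34650009), stood at 1.27, 0.235 and 1.48 TPM in the Lgr5-enriched, 1.06, 0.359 and 2.64 in the goblet-enriched and 35.5, 5.38 and 25.4 in the enterocyte-enriched libraries, and Isg15, a ubiquitin-like modifier, at 10.5, 2.46 and 10.3 TPM in Lgr5-enriched, 9.28, 3.76 and 13.3 in goblet-enriched and 132, 19.4 and 77.7 in enterocyte-enriched replicates 1 to 3. In both, replicate 2 was the lowest library of every population, and all 3 Cd44-negative libraries lay above the rest (log2 difference -3.17, SE 0.55, limma adjusted p = 0.00146, and log2 difference -2.85, SE 0.63, limma adjusted p = 0.00501). Without enterocyte-enriched replicate 2 the count was 14, and Ifit1, Isg15, Ifit3 and Oasl2 differed by -3.93, -3.63, -3.35 and -3.13, and without enterocyte-enriched replicate 1 Ifit3 differed by -1.87. Oasl2 was not called without enterocyte-enriched replicate 1 or 3 (-1.86 and -2.26, limma adjusted p = 0.12 and 0.0839). Isg20 was called higher with overlap, at 31.1, 46.9 and 41 TPM in the Lgr5-enriched, 64.8, 95.3 and 94.9 in the goblet-enriched and 18, 41.3 and 39.9 in the enterocyte-enriched libraries, and was not called without enterocyte-enriched replicate 1 (0.49, limma adjusted p = 0.0827), under median-of-ratios scaling (0.57, limma adjusted p = 0.0821) or under quantile normalization (0.63, limma adjusted p = 0.0635). Of 8 tested genes of MHC class II presentation only the protease Ctss was shared, lower at 191, 191 and 203 TPM in the Lgr5-enriched, 64.1, 51.4 and 70.9 in the goblet-enriched and 673, 449 and 454 in the enterocyte-enriched libraries. Ctss differed by -2.22 (SE 0.16, limma adjusted p = 9.11e-05). H2-Aa, a class II chain, stood at 885, 54 and 72.5 TPM in Lgr5-enriched, 201, 11 and 11.8 in goblet-enriched and 1606, 22.2 and 31.5 in enterocyte-enriched replicates 1 to 3, high in replicate 1 of every population, and was not called. H2-Aa differed by -0.62 (SE 1.54, limma adjusted p = 0.758). Its difference was 1.34 without enterocyte-enriched replicate 1, the opposite direction, and still not called (limma adjusted p = 0.435).

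**Figure D4:**
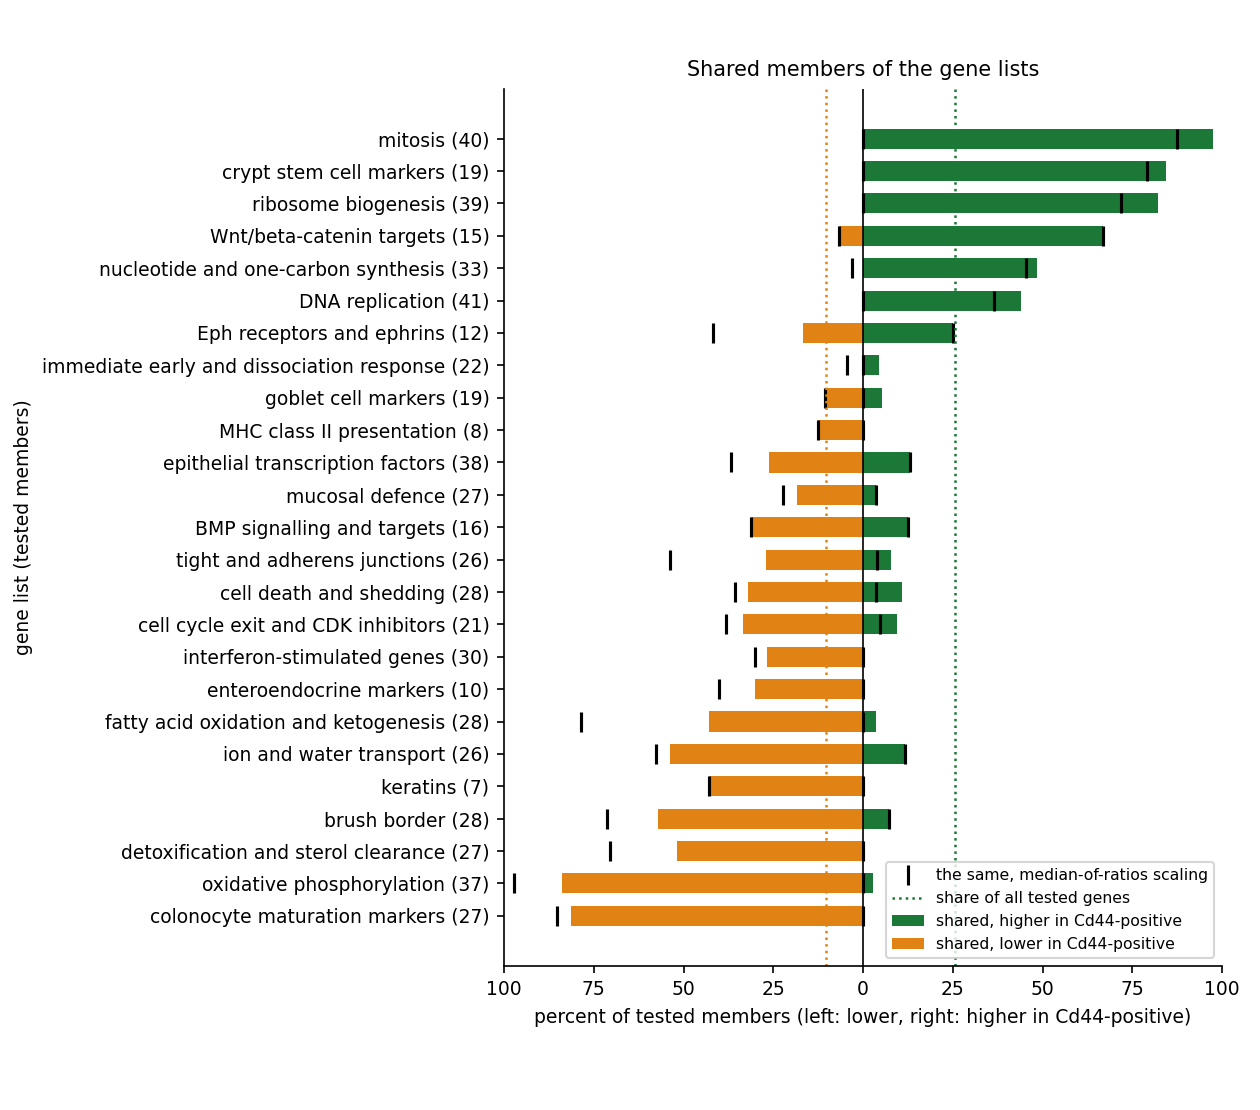
Percent of the tested members of each gene list that were shared higher (green, right) or shared lower (orange, left), with the number tested in brackets, black ticks for the same counts under median-of-ratios scaling and dotted lines for the share of all tested genes. Mitosis, stem cell and ribosome biogenesis lists reach furthest to the right, colonocyte and oxidative phosphorylation lists furthest to the left, and only lists with short bars on both sides hold few shared members. Lists with at least 7 tested members are drawn, and the list labelled detoxification and sterol clearance holds detoxification genes.

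Markers of other cell types moved with the sides as follows. Markers of goblet cells summed to 2389 to 3729 TPM in Lgr5-enriched, 57760 to 70778 in goblet-enriched and 19551 to 25168 in enterocyte-enriched libraries, so the Cd44-negative libraries held many goblet cell transcripts. Of 19 tested goblet markers Tff3 and Zg16 were shared lower and Agr3 shared higher. Zg16, a lectin of the mucus (chr7:127050156-127087328), stood at 73.9, 135 and 77 TPM in the Lgr5-enriched, 119.9, 565 and 351 in the goblet-enriched and 7864, 4900.4 and 3679 in the enterocyte-enriched libraries (log2 difference -5.0, SE 0.45, limma adjusted p = 0.000119), and Tff3, a trefoil peptide, at 42.9, 58.1 and 43.4 TPM in the Lgr5-enriched, 1172, 1171 and 1018 in the goblet-enriched and 2688, 1651 and 1414 in the enterocyte-enriched libraries. Tff3 differed by -2.98 (SE 0.20, limma adjusted p = 7.35e-05). For both, the Cd44-negative libraries exceeded even the goblet-enriched ones. Muc2, the mucin of the mucus gel, was called lower (log2 difference -0.63, SE 0.20, limma adjusted p = 0.0227) although it was highest in goblet-enriched cells, at 39.1, 68.7 and 50.3 TPM in Lgr5-enriched, 9639, 11551 and 13124 in goblet-enriched and 1321, 975 and 1326 in enterocyte-enriched replicates 1 to 3, since the Lgr5-enriched mean counts equally on the log scale. The call of Muc2 ended without enterocyte-enriched replicate 1 or 3 (-0.56 in both, limma adjusted p = 0.0769 and 0.0833). Agr3 was not called without enterocyte-enriched replicate 1 (1.18, limma adjusted p = 0.0654).

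Leukocyte markers summed to 3.60 to 16.6 TPM in Lgr5-enriched, 4.54 to 18.4 in goblet-enriched and 260, 151 and 16.9 in enterocyte-enriched replicates 1, 2 and 3. Of the 23 markers 15 stayed below 1 TPM in every library, Cd4 and Nkg7 were at 0 TPM throughout, and Ptprc, the leukocyte antigen Cd45, reached at most 1.2 TPM. Lyz2 made up most of the sum in enterocyte-enriched replicates 1 and 2, at 0, 12.7 and 9.07 TPM in the Lgr5-enriched, 0.166, 11.5 and 8.79 in the goblet-enriched and 232, 133 and 12.9 in the enterocyte-enriched libraries. It was shared lower (log2 difference -3.86, SE 1.17, limma adjusted p = 0.0207) but not called without enterocyte-enriched replicate 1 or 2 (-3.05 and -3.45, limma adjusted p = 0.0949 and 0.0734), and its difference was -5.09 without enterocyte-enriched replicate 3 and -3.27 without Lgr5-enriched replicate 1. Tyrobp, a signalling adapter of macrophages, followed the same libraries at 0, 0 and 0.314 TPM in the Lgr5-enriched, 0, 1 and 1.37 in the goblet-enriched and 11.8, 6.91 and 0.308 in the enterocyte-enriched libraries, and its call (log2 difference -1.91, SE 0.63, limma adjusted p = 0.0303) ended without Lgr5-enriched replicate 1 or 2, goblet-enriched replicate 1 or enterocyte-enriched replicate 1 or 2 (-1.88 to -1.25). The part of these cells in the interferon and defence results was not tested. Stromal and endothelial markers summed to 22.3 to 51.8 TPM over all 9 libraries, with 11 of 18 below 1 TPM everywhere. Of 5 tested ones Vwf was shared higher (log2 difference 0.64, SE 0.20, limma adjusted p = 0.0231), which ended under median-of-ratios scaling and without goblet-enriched replicate 2 or enterocyte-enriched replicate 1 or 2 (0.61, 0.50 and 0.65).

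Enteroendocrine markers, 10 tested, were shared lower in Chgb, Tph1 and Scg5 and higher in none. Scg5 reached 1 TPM only in the Cd44-negative libraries and entered the test through them. Tph1, which makes serotonin, stood at 0.302, 2.13 and 1.34 TPM in Lgr5-enriched, 0.258, 0.837 and 1.34 in goblet-enriched and 4.9, 3.78 and 2.78 in enterocyte-enriched replicates 1 to 3. Tph1 differed by -1.30 (SE 0.31, limma adjusted p = 0.00771). Chgb, a granule protein, stood at 5.29, 26.2 and 28 TPM in the Lgr5-enriched, 8.6, 26 and 46.9 in the goblet-enriched and 50.6, 56.4 and 77.5 in the enterocyte-enriched libraries (log2 difference -1.63, SE 0.58, limma adjusted p = 0.0403), and its call ended without goblet-enriched replicate 1 or 2 or any enterocyte-enriched library (-1.31, -1.69, -1.76, -1.68 and -1.45). Leaving out any enterocyte-enriched library left 1 shared member. The hormone Pyy was nearly absent from goblet-enriched cells, at 94.1, 50 and 121 TPM in the Lgr5-enriched, 0, 0 and 3.1 in the goblet-enriched and 47.5, 20.9 and 56.6 in the enterocyte-enriched libraries, while the Lgr5-enriched range overlapped the Cd44-negative one. Of 5 tested tuft cell markers Hpgds alone was shared, higher (log2 difference 0.97, SE 0.25, limma adjusted p = 0.00994), against 25.6% of all tested genes. Trpm5, Avil, Rgs13 and Sh2d7 were not called. The list median was -0.23 for Lgr5-enriched and 1.23 for goblet-enriched against enterocyte-enriched cells. Its sum ranged from 11.4 to 71.9 TPM in goblet-enriched libraries, and Trpm5 and Avil were highest in goblet-enriched replicate 3, at 13.6 and 15.3 TPM. Of 22 immediate early and dissociation genes Ier3 alone was shared, at 144, 100.5 and 68.9 TPM in Lgr5-enriched, 128, 105 and 84 in goblet-enriched and 30.5, 60.4 and 49.9 in enterocyte-enriched replicates 1 to 3 (log2 difference 1.16, SE 0.27, limma adjusted p = 0.00636), and it no longer met the rule under median-of-ratios scaling. The count was 2 without goblet-enriched replicate 1 or without enterocyte-enriched replicate 3. Hspa1a, the inducible heat shock protein, was called with overlap at 1183, 723 and 578 TPM in the Lgr5-enriched, 705, 312 and 293 in the goblet-enriched and 303, 238 and 351 in the enterocyte-enriched libraries (log2 difference 0.94, SE 0.32, limma adjusted p = 0.0324), and not without Lgr5-enriched replicate 1 or enterocyte-enriched replicate 1 or 2 (0.79, 0.96 and 0.79, limma adjusted p = 0.0506, 0.0762 and 0.116) or under median-of-ratios scaling (0.64, limma adjusted p = 0.152).

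The promoters of the shared genes also differed in composition. CpG dinucleotides are frequent in promoters of broadly used genes and rare in those of many tissue-specific genes. The median ratio of observed to expected CpG was 0.749 over the 9643 genes with a window, 0.818 over the shared higher genes and 0.598 over the shared lower genes. Among shared lower genes with a size of at least 1 it was 0.382, and 63.1% of them had a ratio below 0.5, against 21.8% of all and 18.2% of the shared higher genes of that size. In the colonocyte list the median was 0.237, with 87.5% below 0.5, and in the oxidative phosphorylation list, also lower in Cd44-positive cells, it was 0.842 with 4% below 0.5. So these 2 lists, both on the lower side, differed in the CpG content of their promoters. The TCF/LEF letters CTTTGAT stood in 3.41% of shared higher, 1.90% of shared lower and 2.90% of all promoters.

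**Figure D5:**
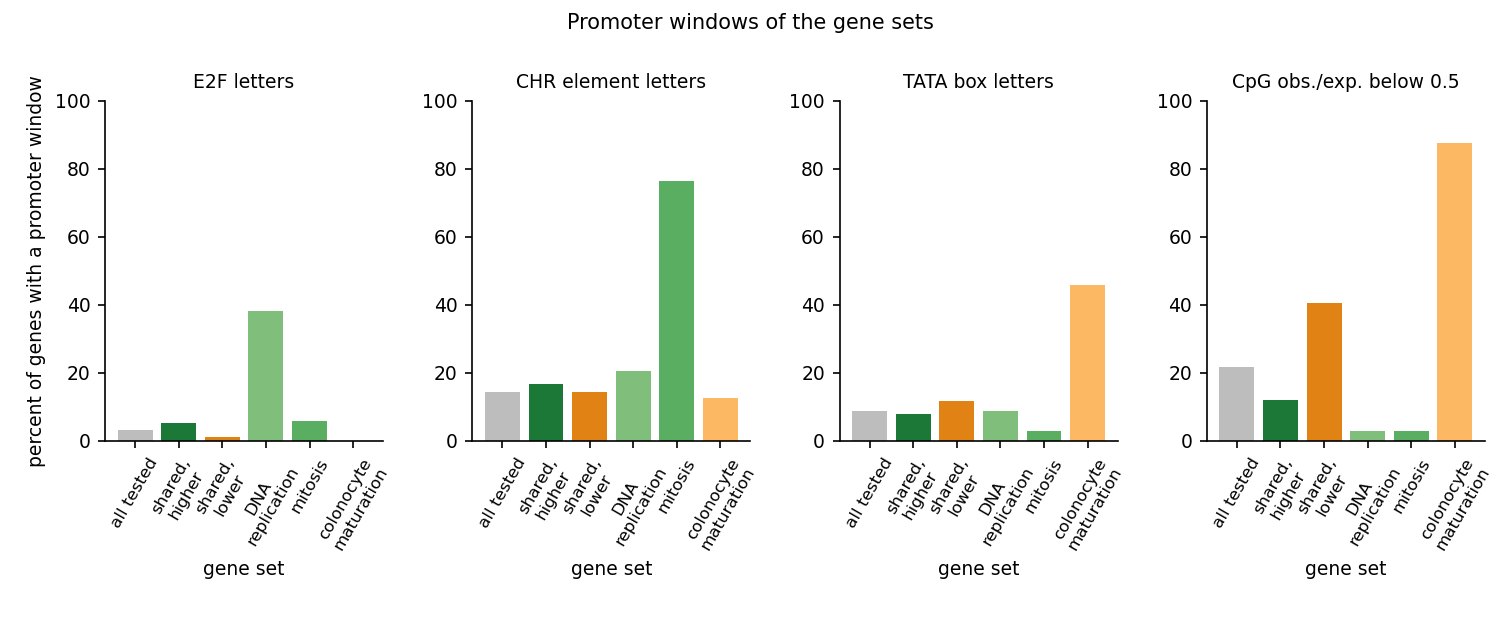
Percent of genes with a promoter window (vertical axis) that hold the E2F, CHR or TATA letters on either strand, or whose ratio of observed to expected CpG is below 0.5, for all tested genes, the shared genes and 3 gene lists. E2F letters are most frequent in the replication list (38.2%), CHR letters in the mitosis list (76.5%), and TATA letters (45.8%) and low CpG (87.5%) in the colonocyte list.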

How the data were processed

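The authors deposited 1 table of gene values on a log2 scale; its columns, converted back, sum to 1000000, so the values are TPM as 2 to the power of the value, and values below 0 as the value plus 1. Cufflinks and mm10 are named per the submitters' processing notes, and the sources used here do not name the aligner, the annotation or the use of strand in counting. Per the labels' protocols, libraries were made from poly-A RNA with a stranded kit. Whole reads were recovered for 18386 of 18396 genes (99.95%, tolerance 1e-06 reads); a factor shared by all genes of a library cannot be seen, so depths are lower bounds.

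The 12888 genes that reached 1 TPM in 3 or more libraries were fitted as log2(TPM + 1) in limma 3.58.1 (R 4.3.3) with 3 group means and a mean-variance trend, and the Cd44-positive side was the mean of its 2 group means. Some genes, such as Alpi, Mgll, Dhrs9, Scg5, Lgr5, Ascl2, Mex3a and 4933406C10Rik, stayed below 1 TPM throughout 1 side. They passed the filter through the other side alone, so their calls are no independent support. The script was tested on simulated data. Same-numbered libraries of different populations deviated together (r 0.194 to 0.601 over genes). The main fit does not use this pairing, and replicate number enters as a block only in an alternative setting. The counts within each replicate number take it as a pair. For replicate 1 that pairing is uncertain, since the sex-linked transcripts of its enterocyte-enriched library go against the label. Members and lists were chosen with earlier results of these data known. Named genes were the 12 shared genes with the largest smaller-of-2 difference in each direction, the 6 most even in each direction among those with a size of at least 2, the 4 antigens, and in each list up to 4 shared members with the largest size, up to 2 called without being shared and up to 2 with the Cd44-positive populations on opposite sides. Other names complete the account of a list and were chosen after their values were seen. Some list members are counted but not reported by name here. Alternatives are in the closing section.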

Additional observations from a re-analysis of the deposited data

Results flagged for a closer look

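A set of 17 named genes had the 2 Cd44-positive populations on opposite sides of the enterocyte-enriched libraries. They are given here for lying on opposite sides, so a difference between the 2 populations follows from the choice, and the values below describe its size and are no independent support. All differences here are goblet-enriched minus Lgr5-enriched, on the log2(TPM + 1) scale, with 3 libraries a group.

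Higher in goblet-enriched than in Lgr5-enriched cells were the mucin Muc2 (7.76, limma adjusted p = 1.6e-07), the goblet cell peptide Spink4 (7.05, adjusted p = 9.29e-07), the gate antigen Kit (4.45, adjusted p = 4.02e-05) and the lectin Itln1 (4.004, adjusted p = 0.000218). The differentiation gene Ndrg1 (3.77, adjusted p = 9.45e-05), Id4 (3.72, adjusted p = 0.000631), the uroguanylin gene Guca2b (3.45, adjusted p = 1.76e-05), the smooth muscle marker Tagln (1.56, adjusted p = 0.000222) and the apoptosis inhibitor Birc3 (1.10, adjusted p = 0.00267) followed, all by limma.

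Lower in goblet-enriched cells were the hormone Insl5 (-4.62, limma adjusted p = 3.98e-05), the potassium channel Kcnq1 (-3.88, adjusted p = 0.00678), the quinone reductase Nqo1 (-3.68, adjusted p = 0.00207) and the chloride channel Cftr (-2.69, adjusted p = 0.000137). The receptor Epha4 (-2.47, adjusted p = 0.000115), the purine enzyme Ppat (-1.995, adjusted p = 0.000209), the nuclear receptor Nr5a2 (-1.485, adjusted p = 0.000923) and Smad4 (-1.29, adjusted p = 7.76e-05) completed the set, all by limma. The equally weighted mean of the Cd44-positive side averages these opposite differences.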

How the results depend on the processing

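Of 162 called named genes, 153 stayed called in the same direction under median-of-ratios scaling, 153 under quantile normalization and 129 without enterocyte-enriched replicate 1. Over 22 settings, 103 of the 111 shared ones stayed called in each setting that tested them. Alpi, Dhrs9, Mgll and Scg5 were not tested without enterocyte-enriched replicate 1. A filter of 5 TPM in 3 libraries tested only 153 of the called named genes. Median-of-ratios scaling gave 2828 genes higher and 3004 lower between the sides, 1801 and 2357 shared, 2534 and 3033 for Lgr5-enriched against enterocyte-enriched cells, 2553 and 2751 for goblet-enriched against enterocyte-enriched cells, 1839 higher and 1549 lower for goblet-enriched against Lgr5-enriched cells, and 401 shared higher genes called in that contrast. Quantile normalization gave 2166 shared higher genes, 2917 and 2393 for Lgr5-enriched against enterocyte-enriched cells, 1864 higher and 1942 lower for goblet-enriched against Lgr5-enriched cells, and 628 shared higher genes called there. A single Cd44-positive group, whose spread takes in the difference between its populations, gave 3116 higher and 1227 lower. Array weights gave 5661 lower for goblet-enriched against Lgr5-enriched cells, with 2032 shared higher and 733 shared lower genes called. The cause of the other changes was not tested.

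With replicate number as a block, 5822 genes were higher and 2392 lower, 3366 and 1380 shared, and 4563 lower for goblet-enriched against Lgr5-enriched cells. Among the named genes the block made 9 more called between the sides, and it ended no call there. The 9 include Paics, Id4, Smad4, Guca2b and Cftr, given above, and Dusp5, Itln1 and Sult1a1 (limma adjusted p = 0.0156, 0.0268 and 0.00704).

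Leaving out 1 library gave 3848 to 5049 genes higher and 1456 to 1880 lower, 3085 to 3901 and 1205 to 1424 shared, 3779 to 5247 and 1196 to 1662 for Lgr5-enriched and 2783 to 3715 and 1641 to 2182 for goblet-enriched against enterocyte-enriched cells, and 1033 to 1405 and 1557 to 3192 for goblet-enriched against Lgr5-enriched cells, where 565 to 1306 shared higher and 245 to 447 shared lower genes were called. Without replicate 1 of all groups these last were 1895 and 742, and Kcnq1 was called higher (0.52, limma adjusted p = 0.0267). Chosen after seeing the data, limma-voom on recovered reads gave 3894 higher and 2169 lower, and leaving out Lgr5-enriched replicate 1 with enterocyte-enriched replicate 1 gave 1012 lower for Lgr5-enriched against enterocyte-enriched cells, 3195 lower for goblet-enriched against Lgr5-enriched cells and 563 shared lower genes called there. At 11.2 M reads, genes of a few TPM are the least certain.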
